A study of Mus musculus with 6 samples.

Results

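The classical MHC class II genes H2-Aa, H2-Ab1, H2-Eb1 and H2-Ea were followed through CD45+ immune cells of metastasis-bearing mouse livers. The members were the features with these 4 symbols, and all 4 were held by each of the 3 deposited matrices, out of 5301 genes held by at least 1 of them. The rule uses the symbols and no measured value, though the set was picked with earlier results of these data known.

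MHC class II molecules are heterodimers that present peptides taken from endosomes to CD4+ T cells. H2-Aa and H2-Ab1 encode the alpha and beta chains of the I-A molecule, and H2-Ea and H2-Eb1 those of I-E. Their transcription depends on the coactivator CIITA, which works through factors bound to X and Y boxes in the promoters, and interferon gamma switches it on in many cells. Dendritic cells and B cells carry these molecules constitutively, while monocytes and macrophages, including the Kupffer cells that reside in the liver, adjust them to their surroundings.

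In the GRCm38 build (GENCODE M21) the 4 genes lie within 86957 bases of chromosome 17. H2-Ab1 spans 34257689 to 34269419 on the plus strand, H2-Aa 34282744 to 34287823 on the minus strand, H2-Eb1 34305867 to 34316674 on the plus strand and H2-Ea 34341959 to 34344645 on the minus strand. The annotation names the last one H2-Ea-ps, a polymorphic pseudogene, which is silent in some mouse strains. The Balb/c mice used here gave H2-Ea UMIs in all 6 libraries.

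Stretches of 2 promoters are shown because members that move together share letters there. RefSeq promoter windows were held for H2-Aa and H2-Eb1. In the lines below, capitals mark the letters GCAACT, which are part of the X box, and CTGATTGG, which hold the inverted CCAAT of the Y box. The first stretch is chr17:34287852-34287919 on the minus strand and the second chr17:34305761-34305827 on the plus strand, both of GRCm38.p6.
H2-Aa: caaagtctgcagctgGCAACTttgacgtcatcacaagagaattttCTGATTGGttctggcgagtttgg
H2-Eb1: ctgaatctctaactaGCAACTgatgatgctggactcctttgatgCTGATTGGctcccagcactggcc

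The X and Y letters were 24 bases apart in H2-Aa and 23 in H2-Eb1, and the Y letters began 51 and 62 bases before the gene start. The letters were picked because both promoters hold them, so their presence in these promoters is no finding. Among 32851 promoter windows of 250 bases, searched on both strands, 9.01% held the X letters and 3.83% the Y letters. Both in this order, 10 to 40 bases apart, were held by 8 windows (0.0244%), those of H2-Aa, H2-Eb1, the class II gene H2-Eb2, Aldh4a1, Gstz1, Mrps9, Narf and Tigd3. The promoters of H2-DMa, H2-DMb1, H2-DMb2 and H2-Ob, which act in peptide loading, had neither set of letters in this exact spelling, and that of H2-Oa had the Y letters.

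Balb/c mice had received 4T07 cells (4TO7 in the labels), a mouse mammary tumour line, by intracardiac injection. The tumour cells carried a scrambled hairpin (Ctrl) or a hairpin against Tim3 (Tim3-KD), both in the pLKO vector, and the mice themselves were unmodified. CD45+ cells were sorted from liver pieces of 5 mm at each edge, and since tumour cells were left out by this sort, the knockdown could not be checked in these libraries. Adjacent tissue free of tumour and micrometastasis were labelled day 3, and macrometastasis day 12. Each of the 6 libraries was the only one of its group and held cells pooled from more than 1 mouse, so no test between groups was possible. Intervals in brackets are exact 95% intervals of counting error alone, and differences between mice cannot be told apart from differences between groups.

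The libraries held 542 to 5502 cells with a median of 6300 to 10248 UMIs, and 48551 to 246896 class II UMIs. The adjacent tissue Tim3-KD library stood apart, with 542 cells, none of them like neutrophil precursors and 19 like mature neutrophils. At most 0.224% of the barcodes of the smaller library were shared between any 2 libraries. Levels are UMIs per 1000000 UMIs of all genes (CPM). Cells were grouped into 28 clusters without the class II genes and their loading genes, and clusters were named from marker lists. The cluster led by Sdc4, Trem2, Ccl24 and Spp1 had too few markers to be named and is called the Trem2/Spp1 cluster. All 11 B markers and all 14 T markers had UMIs in the B-like and T-like cells of every library, as had all 11 Kupffer markers in the Kupffer-like cells of the 5 libraries with 50 or more of them.

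The class II genes were highest in cells like conventional dendritic cells (cDC-like), which take up antigen and prime naive T cells. Their H2-Aa level was 10780 CPM in micrometastasis Ctrl, 9077 in micrometastasis Tim3-KD, 9018 in macrometastasis Ctrl and 9133 in macrometastasis Tim3-KD. The summed level of the 4 genes in these libraries was 27918 to 33426 CPM. The adjacent tissue libraries held 27 and 9 such cells, at 32169 CPM for Ctrl and 24395 for Tim3-KD.

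B-like cells were lower than cDC-like cells and also had a narrow range between libraries. Their summed level was 12933 CPM in adjacent tissue Ctrl, 12834 in adjacent tissue Tim3-KD, 13144 in micrometastasis Ctrl, 13097 in micrometastasis Tim3-KD, 14146 in macrometastasis Ctrl and 11097 in macrometastasis Tim3-KD. The macrometastasis Tim3-KD library was the lowest of the 6.

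Macrophages and monocytes spread over a wide range. The Trem2/Spp1 cluster had 16523 CPM in micrometastasis Ctrl, 8318 in micrometastasis Tim3-KD, 10996 in macrometastasis Ctrl and 14824 in macrometastasis Tim3-KD. Kupffer-like cells had 4681 CPM in adjacent tissue Tim3-KD, 6880 in micrometastasis Ctrl, 7250 in micrometastasis Tim3-KD, 11816 in macrometastasis Ctrl and 6286 in macrometastasis Tim3-KD. Adjacent tissue Ctrl held 31 Kupffer-like cells, at 15890 CPM. The Trem2/Spp1 cluster was thus above the B-like level in micrometastasis Ctrl and macrometastasis Tim3-KD and below it in the other 2 metastatic libraries, and Kupffer-like cells were below it in all 4.

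Monocyte-like cells had 1067 CPM in adjacent tissue Ctrl, 2215 in micrometastasis Ctrl, 249 in micrometastasis Tim3-KD, 2871 in macrometastasis Ctrl and 971 in macrometastasis Tim3-KD. Plasmacytoid dendritic-like (pDC-like) cells, a type known for interferon output rather than for presentation, had 5155 CPM in micrometastasis Ctrl and 6948 in macrometastasis Ctrl. Of these cells 18.2% and 20.8% had at least 2 UMIs of 7 B markers, and they held 36.0% and 32.1% of the class II UMIs of the class. The order cDC-like above B-like held in all 6 libraries, whereas the order of B-like cells and the Trem2/Spp1 cluster changed between libraries.

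**Figure D1:**
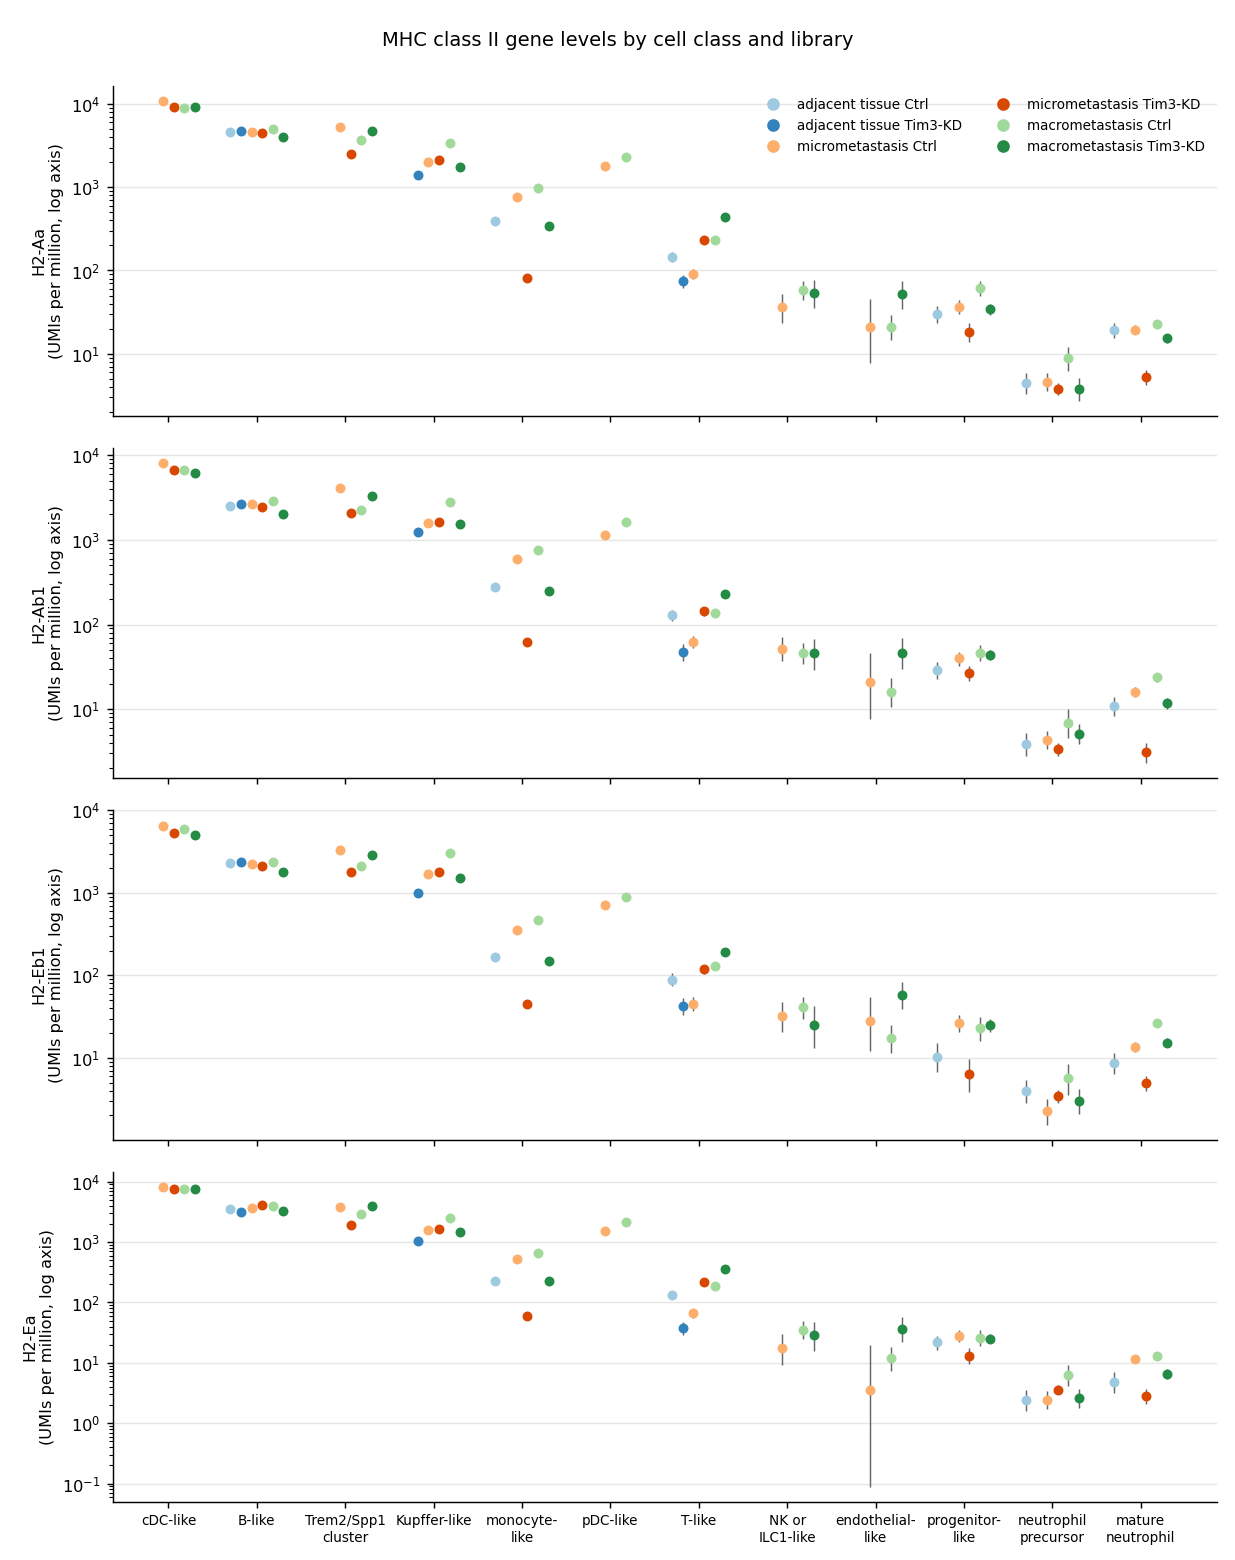
Level of each class II gene (CPM, log axis, 1 panel per gene) by cell class, 1 point per library with at least 50 cells of the class and a bar for the 95% counting interval. All 4 genes have their highest points in cDC-like cells at the left and their lowest points in the neutrophil classes at the right, and the monocyte-like point of micrometastasis Tim3-KD lies far below the others of its class.

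Over whole libraries the genes moved in opposite directions at the 3 sites. The summed level was 1947 CPM in adjacent tissue Ctrl and 6851 in adjacent tissue Tim3-KD, 3942 in micrometastasis Ctrl and 807 in micrometastasis Tim3-KD, and 5681 in macrometastasis Ctrl and 2859 in macrometastasis Tim3-KD. Tim3-KD over Ctrl was therefore 3.52 (3.48 to 3.56) in adjacent tissue, followed by 0.205 (0.203 to 0.206) in micrometastasis and 0.503 (0.500 to 0.506) in macrometastasis. As a mean over cells, with each cell counting alike, the adjacent tissue ratio was 1.93, and with a trimmed mean scaling 2.34. The Tim3-KD library was higher at 1 site and lower at the other two.

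The 4 genes kept close together in each of these ratios. In micrometastasis the ratio was 0.194 for H2-Aa, 0.200 for H2-Ab1, 0.217 for H2-Eb1 and 0.214 for H2-Ea, so that the Tim3-KD level was 4.60-fold to 5.15-fold lower. All 4 were at least 2-fold lower there, against 18.2% of the 2669 genes with at least 100 UMIs in both libraries together. In adjacent tissue all 4 were at least 2-fold higher, by 3.41 to 3.63, against 33.8% of 4458 genes, whose median ratio was 1.503. In macrometastasis 2 of 4, H2-Ab1 and H2-Eb1, were at least 2-fold lower against 10.6% of 2641 genes, and H2-Aa and H2-Ea had ratios of 0.510 and 0.532. The median over these genes, which the authors had chosen as variable, was 0.741 in micrometastasis and 0.834 in macrometastasis. Ratios below 1 were thus common among the deposited genes there.

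The cells that held the class II UMIs differed from library to library. The cDC-like, B-like, Kupffer-like and monocyte-like cells and the Trem2/Spp1 cluster together held 94.5% to 97.6% of them. In micrometastasis Ctrl the Trem2/Spp1 cluster held 32.6%, cDC-like cells 29.3% and B-like cells 18.7%, whereas in micrometastasis Tim3-KD cDC-like cells held 41.8%, Kupffer-like cells 25.8% and B-like cells 6.46%. In macrometastasis Kupffer-like cells were the largest holder in both libraries, with 36.8% in Ctrl and 36.5% in Tim3-KD. In adjacent tissue B-like cells were, with 38.3% in Ctrl and 59.8% in Tim3-KD.

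**Figure D2:**
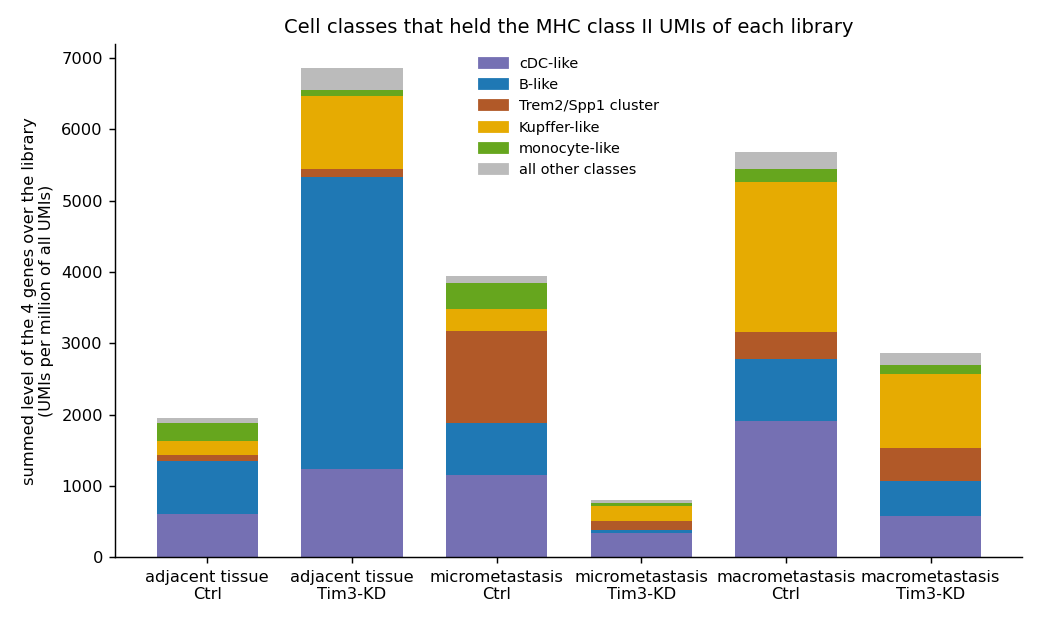
Summed level of the 4 genes over each library (CPM), with each bar divided by the class of the cells that held the UMIs. The B-like and Trem2/Spp1 parts are large in micrometastasis Ctrl and small in micrometastasis Tim3-KD, and the B-like part fills most of the adjacent tissue Tim3-KD bar.

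The make-up of the libraries moved with these totals. B-like cells were 12.7% of micrometastasis Ctrl cells (649 of 5106) and 1.36% of micrometastasis Tim3-KD cells (70 of 5142), and the Trem2/Spp1 cluster 7.81% and 2.63%. Neutrophil precursors, cells with little class II RNA, supplied 26.2% of all UMIs in micrometastasis Ctrl and 45.8% in micrometastasis Tim3-KD. With the Ctrl share of UMIs of each class held fixed, the Tim3-KD levels gave a ratio of 0.715 in micrometastasis, and with the Ctrl levels held fixed, the Tim3-KD shares gave 0.336. The shares alone therefore gave the larger departure from 1 in micrometastasis.

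In macrometastasis the 2 parts were alike, 0.783 from levels and 0.713 from shares. In adjacent tissue the levels alone gave 0.874 and the shares alone 4.99, with 3 classes present in only 1 of the libraries. The higher class II level of the adjacent tissue Tim3-KD library thus went with the larger share of B-like and Kupffer-like cells, 36.2% and 19.6% of its cells against 14.4% and 1.72% in Ctrl. How far the sort or the piece of liver set these shares was not tested.

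Monocyte-like cells showed the largest difference within a class. In micrometastasis H2-Aa was 755 CPM in Ctrl and 80.2 in Tim3-KD, H2-Ab1 589 and 62.6, H2-Eb1 352 and 45.5, and H2-Ea 519 and 60.3. The summed ratio was 0.112 (0.108 to 0.116), a level 8.91-fold lower in Tim3-KD. All 4 genes were at least 2-fold lower, against 13.7% of 2057 genes. In macrometastasis the summed level was 2871 CPM for Ctrl and 971 for Tim3-KD, a ratio of 0.338 (0.328 to 0.349), and again all 4 were at least 2-fold lower, against 16.7% of 1348 genes. As a mean over cells the micrometastasis ratio was 0.185, and with cells called one by one from their markers the macrometastasis ratio was 0.603.

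This class was a mixture whose parts differed between the libraries. Cluster 5, led by Ms4a4c, Thbs1 and Ccr2, supplied 625 of 728 monocyte-like cells in micrometastasis Ctrl and 446 of 832 in Tim3-KD. Cluster 11, led by F13a1, Ass1 and Ly6c2 and holding the cycling gene Pclaf among its leaders, supplied 98 and 378. Cluster 11 had low class II levels, 261 CPM in Ctrl and 93.9 in Tim3-KD.

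Within cluster 5 alone the difference was smaller and remained. The summed level was 2962 CPM for Ctrl and 644 for Tim3-KD in micrometastasis, a ratio of 0.218 (0.208 to 0.227), and all 4 genes were at least 2-fold lower against 5.66% of 1556 genes. In macrometastasis it was 3597 CPM for Ctrl and 1818 for Tim3-KD, a ratio of 0.505 (0.486 to 0.525). Only H2-Ea passed 2-fold there, with a ratio of 0.468, against 6.37% of 581 genes, and the other 3 had 0.506 to 0.536. Adjacent tissue Ctrl had 2466 CPM over 160 cells, below both other Ctrl libraries and above both Tim3-KD ones.

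Cell by cell, the difference in cluster 5 lay in how many cells expressed the genes. Cells above 1000 CPM for the summed genes were 28.2% of cluster 5 in micrometastasis Ctrl and 7.62% in Tim3-KD. The median of those cells was 6760 CPM in Ctrl (176 cells) and 6187 in Tim3-KD (34 cells). Cells with no class II UMI were 47.5% and 83.6%. The cells above the limit thus had similar medians, and there were fewer of them in Tim3-KD. Cells near the limit, between 500 and 2000 CPM, were 8.48% and 2.69% of the cluster.

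In macrometastasis both quantities were lower, with 37.0% of cluster 5 cells above 1000 CPM in Ctrl and 24.4% in Tim3-KD, at medians of 7700 and 4715 CPM. With each cell thinned to 1500 UMIs, 35.1% (31.5% to 39.1%) of cluster 5 cells kept a class II UMI in micrometastasis Ctrl and 10.5% (7.85% to 13.8%) in Tim3-KD, and without thinning 52.5% and 16.4%. Mature neutrophil-like cells, which should lack these genes, gave 7.42% and 2.26% after thinning (23.9% and 8.93% without), at a median depth of 6120 and 6541 UMIs against 10251 and 8033.5 in cluster 5. The share in cluster 5 was above this background in both libraries, and the background itself was lower in Tim3-KD.

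Other markers also moved in cluster 5. The summed level of the 10 monocyte markers held was 6427 CPM for Ctrl and 7001 for Tim3-KD in micrometastasis, with no marker at 0. The 11 B markers summed to 52.1 and 24.8 CPM (0 and 1 at 0), the 4 cDC1 markers held to 425 and 334 (0 and 1 at 0) and the 3 cDC2 markers held to 30.4 and 22.9 (none at 0). In macrometastasis the B markers summed to 165 CPM in Ctrl and 94.7 in Tim3-KD (none at 0), the cDC1 markers to 466 and 409 and the cDC2 markers to 47.2 and 23.1. The 3 hepatocyte markers held, none at 0, were 342 and 319 CPM in cluster 5 of micrometastasis, and 344 and 393 in macrometastasis. Over all monocyte-like cells they were 259 CPM for Ctrl and 110 for Tim3-KD in micrometastasis, and 341 and 195 in macrometastasis. Monocyte-like cells with at least 2 UMIs of Clec9a, Flt3 and Clec10a, markers of cDC, were 4.26% of the class for Ctrl and 5.89% for Tim3-KD in micrometastasis and held 9.53% and 20.0% of its class II UMIs. In macrometastasis they were 7.06% and 8.55% of the class and held 27.5% and 32.7%. Monocyte-like cells with at least 2 UMIs of 5 Kupffer markers were 4.09% and 4.75% of the class in macrometastasis. They held 18.5% of its class II UMIs for Ctrl and 5.96% for Tim3-KD, and 0.024% and 0.029% in micrometastasis. The part of these markers in the class II difference was not tested. After the mature neutrophil-like level of the same library was taken off, the monocyte-like ratio in micrometastasis was 0.108.

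Kupffer-like cells differed between Ctrl and Tim3-KD in macrometastasis. H2-Aa was 3436 CPM in Ctrl and 1758 in Tim3-KD, H2-Ab1 2812 and 1531, H2-Eb1 3030 and 1503, and H2-Ea 2538 and 1494. The summed ratio was 0.532 (0.527 to 0.537) over 804 and 936 cells, where the median ratio of all 1745 genes was 1.00. By the fold limit H2-Eb1 passed, at 2.02-fold lower, and the other 3 were 1.70-fold to 1.95-fold lower, against 4.41% of genes at least 2-fold lower.

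In micrometastasis the same class had ratios of 1.06 for H2-Aa, 1.03 for H2-Ab1, 1.08 for H2-Eb1 and 1.05 for H2-Ea. No member passed 2-fold in either direction, against 3.80% of 1264 genes. The summed ratio of 1.05 (1.03 to 1.08) was 0.960 with a trimmed mean scaling, so its direction is not fixed by these data. Cluster 21 was 22.3% of the Kupffer-like cells for Ctrl and 1.17% for Tim3-KD there, and cluster 0 alone gave 1.07.

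In macrometastasis the lower end, the middle and the upper end of the Kupffer-like cells were all lower in Tim3-KD. The median cell had 11115 CPM in Ctrl, with 80% of cells between 4882 and 19774, and 5315 CPM in Tim3-KD, with 80% between 1799 and 12761. In micrometastasis the medians were 5109 CPM in Ctrl and 6621 in Tim3-KD. Nearly all of these cells held the genes, since 99.8% kept a class II UMI after thinning in macrometastasis Ctrl and 97.7% in Tim3-KD (100% and 99.8% without). This was unlike cluster 5 of the monocytes, where the share of expressing cells differed.

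Kupffer markers summed to 19945 CPM in macrometastasis Ctrl and 25996 in Tim3-KD, and the 11 B markers to 202 and 189 CPM (2 and 0 at 0). The 2 Kupffer-like clusters were mixed differently here too, with cluster 21 at 8.08% of Kupffer-like cells for Ctrl and 19.4% for Tim3-KD, and cluster 0 alone gave a ratio of 0.532. The Ctrl level in macrometastasis was 1.72 times (1.69 to 1.75) that in micrometastasis, and 1.76 times in cluster 0 and 1.47 times in cluster 21 alone. No member passed 2-fold in that comparison, against 2.02% of 1040 genes, and the median of all those genes was 1.07.

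**Figure D3:**
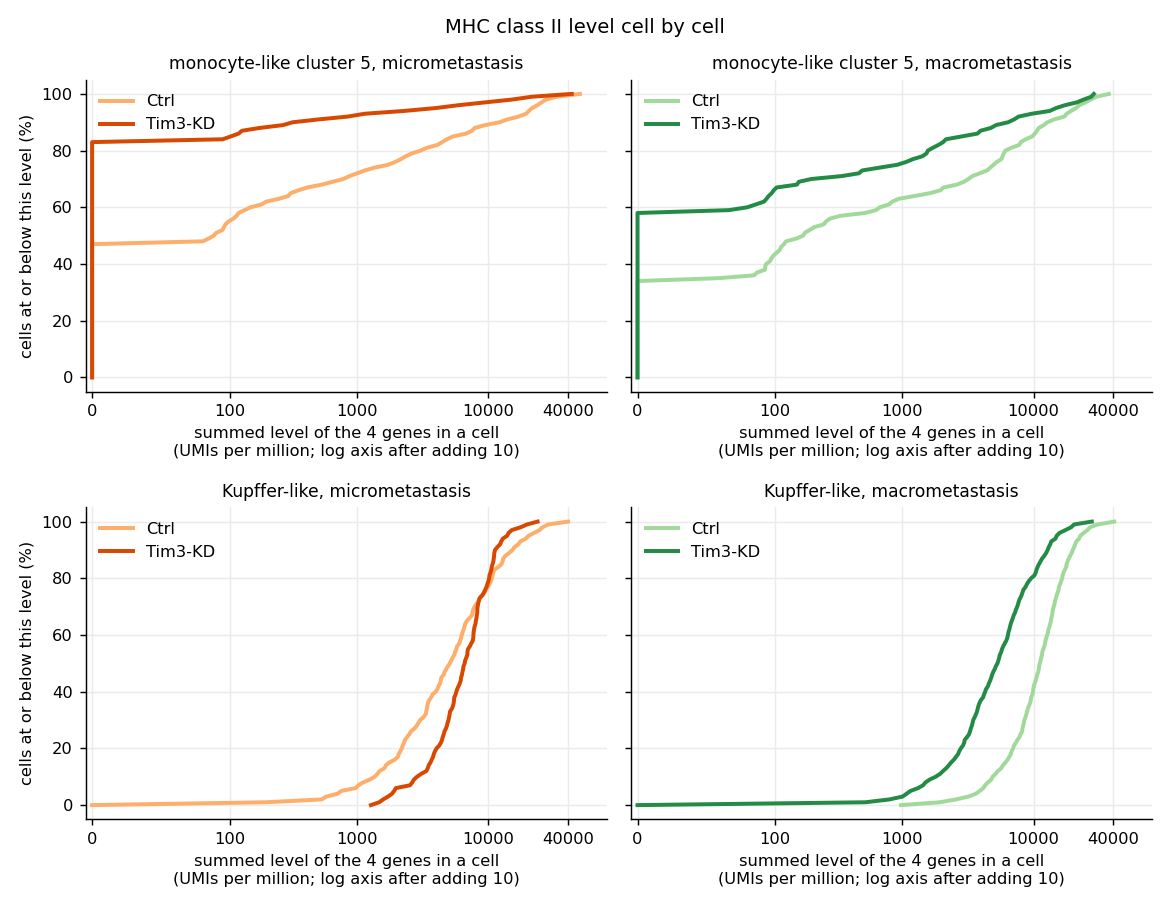
Cumulative share of cells (%) at or below a summed class II level (CPM, log axis after adding 10), for Ctrl and Tim3-KD. In monocyte-like cluster 5 the curves part at the share of cells with no UMI, 47.5% against 83.6% in micrometastasis, whereas in Kupffer-like cells of macrometastasis the whole Tim3-KD curve lies to the left of the Ctrl curve.

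The Trem2/Spp1 cluster moved in opposite directions at the 2 metastatic sites. In micrometastasis H2-Aa was 5261 CPM in Ctrl (399 cells) and 2496 in Tim3-KD (135 cells), and the summed ratio was 0.503 (0.493 to 0.514). H2-Aa passed 2-fold and the other 3 genes were 1.86-fold to 1.98-fold lower, against 7.56% of 1190 genes. In macrometastasis H2-Aa was 3703 CPM in Ctrl (105 cells) and 4720 in Tim3-KD (147 cells), and the summed ratio was 1.35 (1.32 to 1.37). None of the 4 passed 2-fold, against 10.1% of 504 genes.

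The cells of this cluster were uneven. The median cell had 14975 CPM for Ctrl and 2994 for Tim3-KD in micrometastasis, and 8686 and 16014 in macrometastasis. After thinning 84.5% (80.5% to 87.9%) of cells kept a class II UMI in micrometastasis Ctrl and 70.3% (61.9% to 77.9%) in Tim3-KD, and without thinning 91.5% and 80.7%. The 11 Kupffer markers, none at 0, summed to 100 CPM for Ctrl and 1074 for Tim3-KD in micrometastasis, and to 264 and 337 in macrometastasis. The 3 hepatocyte markers held, none at 0, were 383 CPM for Ctrl and 1021 for Tim3-KD in micrometastasis, and 1182 and 1157 in macrometastasis. The 10 monocyte markers held, none at 0, were 3777 and 3027 CPM in micrometastasis and 1242 and 2290 in macrometastasis. At a finer clustering 70 of the 135 Tim3-KD cells of micrometastasis and 3 of the 399 Ctrl cells fell in a cluster that passed the naming rule on hepatocyte markers, as did 74 of 105 Ctrl and 99 of 147 Tim3-KD cells of macrometastasis. With the remaining cluster of Trem2 and Spp1 the ratio in micrometastasis was 0.704. The 4 cDC1 markers held, none at 0, were 460 CPM for Ctrl and 424 for Tim3-KD in micrometastasis, and 232 and 262 in macrometastasis, and the 3 cDC2 markers held were 100.7 and 86.4, and 70.4 (1 at 0) and 74.8. Clec9a, Flt3 and Clec10a together, the narrower set of cDC markers, were 37.9 and 67.1 CPM in micrometastasis, and 5.22 and 21.9 in macrometastasis. Cells with at least 2 UMIs of these 3 genes held 6.01% and 17.2% of the class II UMIs in micrometastasis, and 3.05% and 7.53% in macrometastasis. The part of these markers in the result was not tested.

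Conventional dendritic-like and B-like cells differed little. In cDC-like cells the summed Tim3-KD over Ctrl ratio was 0.859 (0.847 to 0.872) in micrometastasis, from 96 and 140 cells, and 0.956 (0.944 to 0.967) in macrometastasis, from 89 and 172 cells. No member passed 2-fold, against 8.95% of 503 and 5.86% of 495 genes. At the finer clustering the cDC-like cells split into cDC1-like cells, which are known for cross-presentation to CD8+ T cells, and cDC2-like cells, which are known for presentation to CD4+ T cells. cDC1-like cells had 34242 CPM in micrometastasis Ctrl, 30152 in Tim3-KD, 29792 in macrometastasis Ctrl and 28953 in Tim3-KD. cDC2-like cells had 31307, 28878, 27342 and 25052 CPM in the same order, from 32 to 57 cells, so both kinds showed the small difference.

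In B-like cells the summed ratio was 0.992 (0.975 to 1.01) in adjacent tissue, followed by 0.996 (0.965 to 1.03) in micrometastasis and 0.784 (0.773 to 0.796) in macrometastasis. No member passed 2-fold at any site, against 19.9% of 1078, 14.1% of 806 and 7.13% of 897 genes. In micrometastasis B-like cells were thus fewer in Tim3-KD, and their level had an interval around 1. B-like cluster 22, led by Vpreb3, a gene of developing B cells, had 3965 to 5401 CPM in the 3 libraries with at least 50 of its cells, against 12115 to 15651 in cluster 1. It made up 21.6% of B-like cells in micrometastasis Ctrl and 2.86% in Tim3-KD, and cluster 1 alone gave 0.835 in adjacent tissue, followed by 0.874 in micrometastasis and 0.844 in macrometastasis.

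**Figure D4:**
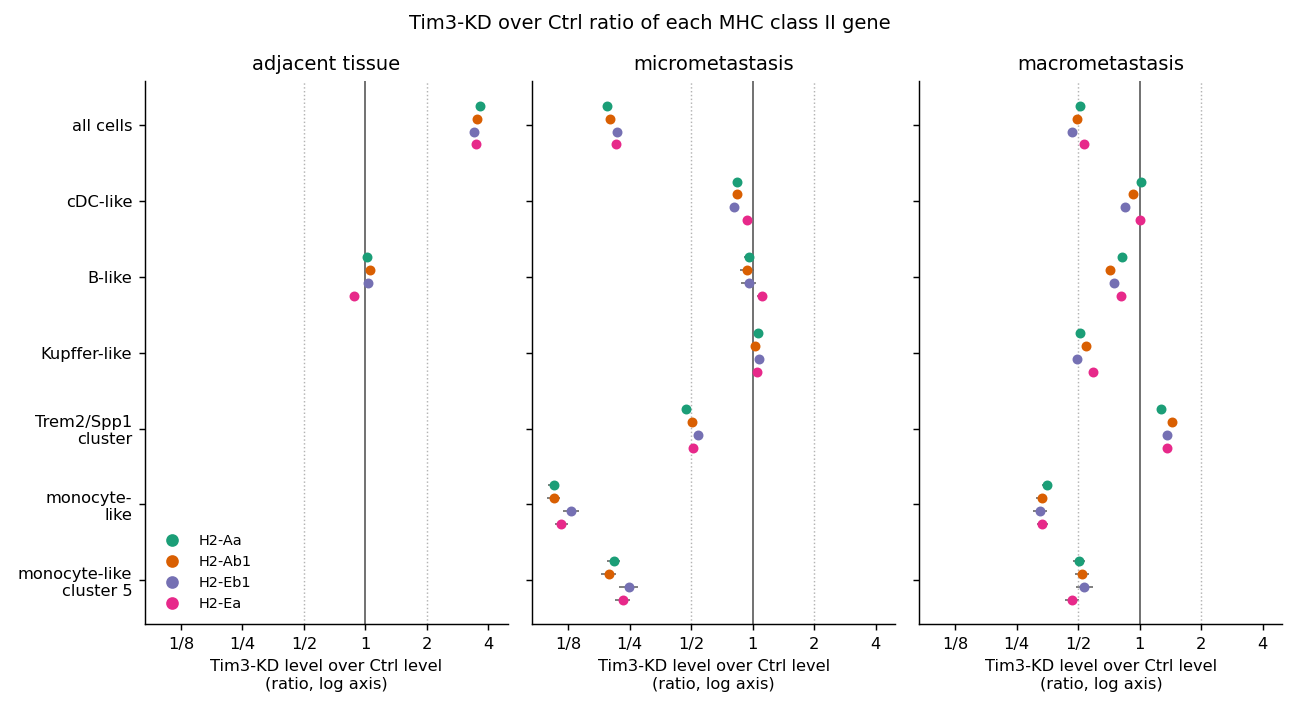
Tim3-KD over Ctrl ratio of each class II gene (log axis, 95% counting intervals), for all cells and for classes with at least 50 cells in both libraries of a site. In micrometastasis the B-like, cDC-like and Kupffer-like points lie near 1 and the monocyte-like points near 0.11, and in macrometastasis the Kupffer-like points lie near 0.5.

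Cells not known to make class II set the floor of these measurements. Neutrophil precursors had 13.7 to 27.6 CPM and mature neutrophil-like cells 16.0 to 85.7 CPM in the libraries with at least 50 of them. T-like cells had 201 to 1219 CPM, well above this floor. Of the T-like cells, 3.00% to 12.7% per library had at least 2 UMIs of 7 B markers, and these cells held 53.9% to 91.1% of the class II UMIs of the class. Without them T-like cells had 48.1 to 244 CPM. The T-like Tim3-KD over Ctrl ratio in adjacent tissue was 0.405 with those cells and 2.11 (1.56 to 2.87) without them, so its direction turned on 9 Ctrl and 10 Tim3-KD cells. In micrometastasis it was 2.67 with and 2.05 (1.67 to 2.53) without them, and in macrometastasis 1.78 and 1.54 (1.38 to 1.73).

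Between sites, the whole-library class II level of Ctrl was higher in micrometastasis than in adjacent tissue, both labelled day 3. The ratio was 2.02 (2.01 to 2.04), and 1.51 as a mean over cells. H2-Ab1 (2.17) and H2-Ea (2.03) passed 2-fold against 12.7% of 2283 genes, whose median ratio was 1.23. Macrometastasis over micrometastasis was 1.44 (1.43 to 1.45), and 1.09 as a mean over cells. No member passed 2-fold in it against 21.9% of 1786 genes, whose median ratio was 1.46, close to that of the members. Macrometastasis was labelled day 12, so site and day cannot be told apart there. With class shares held fixed the same ratios were 1.09 and 0.964, nearer to 1 than the unadjusted ones. With cluster shares held fixed they were 0.979 and 0.989, so the first fell on the other side of 1.

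Monocyte-like cells differed between adjacent tissue and micrometastasis. Their Ctrl level went from 1067 to 2215 CPM, a ratio of 2.08 (2.02 to 2.13), and 3 of 4 members passed 2-fold against 9.53% of 1595 genes. In cluster 5 alone the ratio was 1.20 (1.17 to 1.24), and cluster 11 was 37.6% of the monocyte-like cells in adjacent tissue Ctrl. The difference was thus smaller within the main cluster than in the class. B-like cells had a ratio of 1.02 (1.00 to 1.03) in the same comparison.

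The balance of the 4 genes differed between cell classes. UMIs of 3' libraries are not scaled by length, so a ratio of 2 genes is compared here between classes and not read as more of one chain. H2-Aa over H2-Ab1 was 1.73 to 1.97 in B-like cells over 6 libraries and 1.11 to 1.31 in Kupffer-like cells over 5, and the ranges did not overlap. In cDC-like cells it was 1.35 to 1.48, between those classes. Monocyte-like cells (1.28 to 1.45) and the Trem2/Spp1 cluster (1.19 to 1.63) overlapped the Kupffer-like range.

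H2-Ea over H2-Eb1, the 2 chains of I-E, also set B-like and Kupffer-like cells apart. The ranges of cDC-like cells (1.23 to 1.51) and the Trem2/Spp1 cluster (1.07 to 1.38) overlapped that of B-like cells for this ratio. It was 1.34 to 1.91 in B-like cells, 0.838 to 1.05 in Kupffer-like cells, 1.33 to 1.48 in monocyte-like cells and 2.12 to 2.41 in the 2 libraries with enough pDC-like cells. H2-Eb1 over H2-Ab1 was 0.557 to 0.629 in pDC-like cells, 0.597 to 0.726 in monocyte-like cells and 0.826 to 0.917 in B-like cells. In progenitor-like cells, with far fewer class II UMIs, it was 0.239 to 0.661. Across 55 sets of 1 class in 1 library the 4 genes had pairwise Pearson correlations of 0.991 to 0.997 on log2 levels, which is across sets that share libraries and is given as a description.

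**Figure D5:**
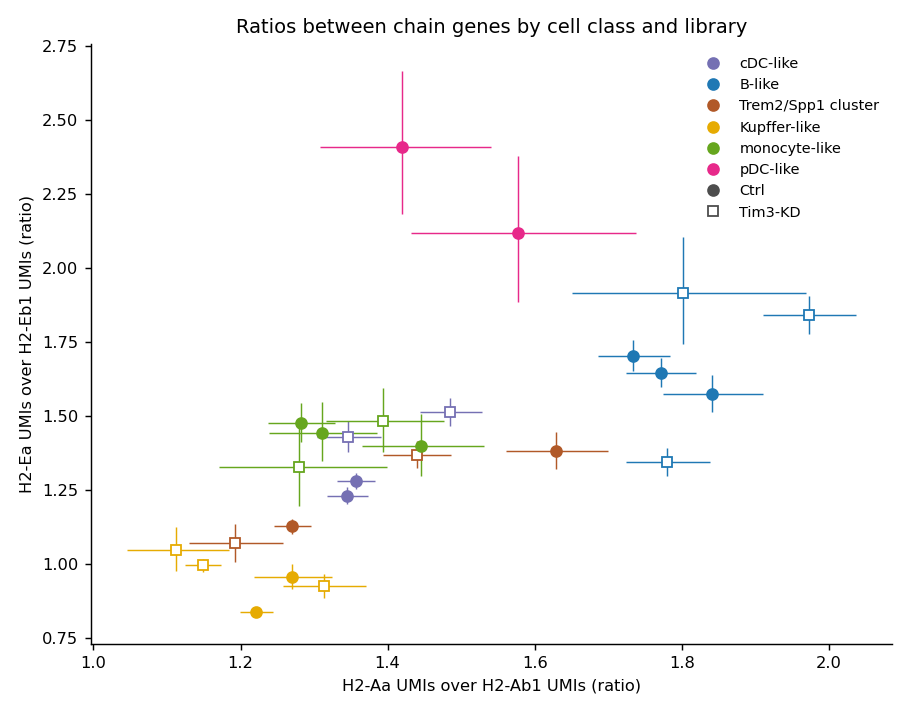
H2-Ea over H2-Eb1 UMIs against H2-Aa over H2-Ab1 UMIs, 1 point per library with at least 50 cells for each of 6 cell classes high in class II (filled circles Ctrl, open squares Tim3-KD, bars 95% counting intervals). Of the classes plotted, Kupffer-like cells sit at the lower left, B-like cells at the right and pDC-like cells, which have Ctrl points alone, at the top.

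Genes of class II loading and regulation were held in part, 9 of 15 by all matrices and 11 by at least 1. Over whole libraries 8 of the 10 measured were at least 2-fold higher in Tim3-KD in adjacent tissue (33.8% of all genes), 8 of 11 were at least 2-fold lower in micrometastasis (18.2% of all genes) and 0 of 9 in macrometastasis (10.6%). In cDC-like cells none passed 2-fold at either metastatic site. In B-like cells of micrometastasis 2 of 10 did, Ifi30 and Lgmn, a thiol reductase and a protease of antigen processing, which is near the 14.1% of all genes past 2-fold either way there. Over whole libraries the list thus moved with the members in adjacent tissue and micrometastasis. In monocyte-like cells 6 of 9 were at least 2-fold lower in micrometastasis (13.7% of all genes) and 1 of 7 in macrometastasis (16.7%). In the Trem2/Spp1 cluster of micrometastasis it was 0 of 9 (7.56%), and Ctsl was at least 2-fold higher. In Kupffer-like cells of macrometastasis it was 1 of 7 (4.41%), Ciita. The median log2 ratio of those 7 genes was 0.302, so most of them were not lower in Tim3-KD.

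Ciita, the coactivator of the members, had few UMIs. In monocyte-like cells of micrometastasis it was 15.1 CPM in Ctrl (142 UMIs) and 1.28 in Tim3-KD (18 UMIs), a ratio of 0.0847 (0.0488 to 0.139), and in cluster 5 the ratio was 0.144 (0.0702 to 0.266). In Kupffer-like cells of macrometastasis it was 51.3 CPM for Ctrl and 23.5 for Tim3-KD, a ratio of 0.458 (0.389 to 0.538). In Kupffer-like cells of micrometastasis it was 28.7 and 35.2 CPM, a ratio of 1.23 (0.881 to 1.71). In these 2 classes Ciita was thus lower in the comparisons where the members were lower, and its interval included 1 in Kupffer-like cells of micrometastasis.

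In the Trem2/Spp1 cluster Ciita was 47.8 CPM for Ctrl and 26.0 for Tim3-KD in micrometastasis, a ratio of 0.544 (0.360 to 0.796). In macrometastasis its ratio there was 0.828 (0.500 to 1.38), whose interval includes 1, while the members had 1.35. In cluster 5 of macrometastasis the Ciita ratio was 0.783 (0.498 to 1.24), from 47 and 37 UMIs, and a difference was not detectable at this depth.

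H2-DMb1 and H2-DMb2, beta chains of the H2-DM editor that exchanges peptides on class II, followed the members in part. In monocyte-like cells of micrometastasis H2-DMb1 was 96.0 CPM for Ctrl and 29.8 for Tim3-KD (ratio 0.310) and H2-DMb2 33.9 and 13.9 (0.410). In Kupffer-like cells of macrometastasis their ratios were 0.658 and 0.715, nearer to 1 than those of the members. H2-Oa and H2-Ob, the chains of the H2-DO modulator, were 67.0 to 182 and 31.1 to 140 CPM in B-like and cDC-like cells. Both were at most 1.87 CPM in Kupffer-like cells, which nevertheless held the class II chains.

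Of the list of inducers and brakes, Ifng was 294 CPM in T-like cells of micrometastasis Ctrl and 341 in Tim3-KD, and 245 and 270 in macrometastasis. In adjacent tissue it was 306 CPM in T-like cells of Ctrl and 147 in Tim3-KD. Over the whole library it was 16.5 CPM for Ctrl and 9.74 for Tim3-KD in micrometastasis, and 27.4 and 21.6 in macrometastasis. At the 2 metastatic sites the level in T-like cells was therefore no lower in Tim3-KD, and the whole-library level was. The T-like clusters were mixed differently, with cluster 10 (led by Lef1 and Il7r) at 33.7% of the class for Ctrl and 11.5% for Tim3-KD in micrometastasis, and cluster 19 (led by Cd8b1 and Cd8a) at 21.5% and 39.5%. In cluster 20, led by Ctla4 and Tnfrsf4, Ifng was lower in Tim3-KD in macrometastasis, at 317 CPM for Ctrl and 31.1 for Tim3-KD. In micrometastasis it was 74.1 and 12.7 CPM there, from 78 and 53 cells. Those 2 values rest on fewer than 100 Ifng UMIs over both libraries. Irf1, a target of interferon, was 55.6 CPM in monocyte-like cells of micrometastasis Ctrl and 34.0 in Tim3-KD, and 112 and 34.1 in macrometastasis.

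Among costimulatory genes Cd83 and Cd40 moved with the members in monocyte-like cells. Cd83, which stabilizes class II at the surface, was 86.3 CPM for Ctrl and 16.9 for Tim3-KD in micrometastasis (ratio 0.196), and 160 and 30.8 in macrometastasis (0.193). Cd40, the receptor for help from CD4+ T cells, was 18.1 and 2.705 CPM in micrometastasis (0.149), and 26.4 and 8.74 in macrometastasis (0.331). In micrometastasis these 2 were the genes at least 2-fold lower of the 5 measured, against 13.7% of all genes. The class I presentation list was held by all matrices for 0 of its 14 genes, and the 3 measured in monocyte-like cells of micrometastasis did not pass 2-fold. Of the T cell receptors for class II, Cd4 was held, at 43.9 to 69.1 CPM in T-like cells.

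The genes most like the members in pattern were found by the Pearson r of log2 levels with the summed members over the same 55 sets, among 1638 genes held by all matrices. They were Cd83 (0.946), H2-DMb1 (0.933), H2-DMb2 (0.923), Ifi30 (0.911), Ciita (0.903), Cd180 (0.883), Fgd2 (0.857), Gm6377 (0.853), Cd40 (0.834) and Phf11b (0.804). The sets share libraries and depth, and the correlations are a description. Of the first 5 genes, 4 come from the class II loading list and Cd83 from the costimulation list.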

How the data were processed

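Single-cell RNA-seq was analysed for 6 groups, 1 library each, made with 10x Genomics 3' kits. Per the study's methods and the submitters' processing notes, reads were trimmed with Trim Galore 0.4.3 and mapped with STAR 2.7.7a to GRCm38, UMIs were counted over exons and introns, cells within set limits of UMIs, genes and mitochondrial reads were kept, doublets found with scrublet were removed, and variable genes were chosen. The values the authors deposited were scaled scores (mean near 0, SD of 1, cap of 10), with both libraries of a site scaled together and the 3 sites separately, so that a level below the mean of its matrix is a negative score. The comparisons had been planned for UMIs, so the scores were inverted: for all features but 1 of the adjacent tissue matrix, which was set to 0 UMIs, the cells without a UMI lie on an exact line against the total UMIs of the cell, and this line gives the scale. Such a line implies that total UMIs had been regressed out, a step that the study's methods do not state. Of the detected values, at least 99.9969% lay within 0.05 of a whole number in each matrix, no member value was at the cap, and on simulated scores of 4485 genes in 2345 cells 100% of UMIs were recovered exactly. Levels were scaled by the recovered total UMIs over all genes. No value column was left without a sample.

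Cells of all libraries were clustered with scanpy 1.11.5 on 1633 shared genes, leaving out 9 class II and loading genes (UMIs per 10000, log1p, 30 principal components, 15 neighbours, Leiden resolution 1, seed 1), which gave 28 clusters. Clusters were named by counting, for every class, the markers found among the 10 genes with the greatest fold over other cells, then those at least 2-fold higher, and were left unnamed with fewer than 3 of the latter or with more markers of another class. These limits were set after the data had been seen. The classes are rebuilt ones and need not match those of the study. Doublets had been removed by the authors, and a doublet score over 0.15 was still found in 2.14% to 8.67% of cells per library.

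UMIs were summed per class and library (at least 50 cells for a ratio), and ratios have exact conditional binomial intervals, levels exact Poisson intervals and shares exact binomial intervals (scipy 1.17.1), which cover counting error only. Genes with at least 100 UMIs over both libraries were counted past 2-fold. These counts cover the deposited variable genes alone. The genes named were the 4 members, every gene held of 5 lists (class II loading and regulation, inducers and brakes, costimulation, class I presentation, readers on T cells) and the 10 genes most like the members in pattern. The count over the list of inducers and brakes is not reported here. Cd83 and the other genes of these lists, the members and the X and Y letters were chosen with earlier results of these data known. The alternatives were other scalings, depth and doublet limits, clusterings, cells called one by one and subtraction of the neutrophil level.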

Additional observations from a re-analysis of the deposited data

Results flagged for a closer look

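The Tim3-KD over Ctrl ratio of the summed class II level differed in direction between sites. Over all cells it was 3.52 in adjacent tissue, against 0.205 in micrometastasis and 0.503 in macrometastasis. The adjacent tissue Tim3-KD library held 542 cells. In the Trem2/Spp1 cluster it was 0.503 in micrometastasis and 1.35 in macrometastasis. In Kupffer-like cells it was 1.05 in micrometastasis and 0.532 in macrometastasis, but the first was 0.960 with a trimmed mean scaling, so its direction is not fixed. In T-like cells it was 0.405 in adjacent tissue, followed by 2.67 in micrometastasis and 1.78 in macrometastasis. Without T-like cells that held at least 2 UMIs of the B markers it was 2.11, 2.05 and 1.54, above 1 at all 3 sites. Each group had 1 library, so none of these differences between sites was tested.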

How the results depend on the processing

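Each group had 1 library, so leaving out a replicate was not possible. No result came from a test, and no paired analysis over the sites was run. Of 138 alternative values over 39 results, 60 stayed within the counting interval, 76 left it and 2, of ratios whose interval excluded 1, changed direction. These were the Kupffer-like ratio in micrometastasis (0.960 with a trimmed mean scaling, 1.03 as a mean over cells and 1.09 with cells called one by one) and the T-like ratio in adjacent tissue (2.11 without cells with at least 2 UMIs of the B markers, against 2.05 and 1.54 at the other sites). The B-like ratios of adjacent tissue and micrometastasis, with intervals around 1, fell on both sides of 1. The intervals are narrow, so even a small move can leave them. Some moves were large. The whole-library ratio of adjacent tissue went from 3.52 to 1.93 as a mean over cells. The monocyte-like ratio went from 0.112 to 0.218 in micrometastasis with cluster 5 alone, and from 0.338 to 0.603 in macrometastasis with cells called one by one. The ratio of the Trem2/Spp1 cluster in micrometastasis went from 0.503 to 0.704 at resolution 2. Unless a site comparison of Ctrl libraries is named, the ratios are Tim3-KD over Ctrl.

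As a mean over cells, the whole-library ratios were 1.93 in adjacent tissue, followed by 0.296 in micrometastasis and 0.630 in macrometastasis, and those of Ctrl 1.51 (micrometastasis over adjacent tissue) and 1.09 (macrometastasis over micrometastasis). By class they were 0.880 and 0.928 for cDC-like cells (micrometastasis, then macrometastasis, as in the next values), 0.491 and 1.28 for the Trem2/Spp1 cluster, 0.185 and 0.486 for monocyte-like cells, and 0.906, 0.914 and 0.833 for B-like cells at the 3 sites. With a trimmed mean scaling the whole-library ratios were 2.34, 0.277 and 0.606. The class ratios were then 0.768 for cDC-like cells of micrometastasis, 1.12, 1.08 and 0.878 for B-like cells, 0.436 and 1.30 for the Trem2/Spp1 cluster, 0.544 for Kupffer-like cells of macrometastasis and 0.131 and 0.441 for monocyte-like cells.

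Without cells under 3000 UMIs the whole-library ratio of micrometastasis was 0.207 and those of Ctrl 2.00 and 1.47. Without doublet scores over 0.15 the whole-library ratios were 3.08, 0.215 and 0.492, those of Ctrl 2.14 and 1.47, and the class ratios 0.924 (B-like, adjacent tissue), 0.522 and 1.45 (Trem2/Spp1 cluster) and 0.105 and 0.366 (monocyte-like).

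Clustered with the class II genes, the ratios were 0.883 (cDC-like) and 0.118 (monocyte-like) in micrometastasis and 1.31 (Trem2/Spp1 cluster) in macrometastasis, and in Ctrl macrometastasis over micrometastasis 0.687 (Trem2/Spp1 cluster) and 1.35 (monocyte-like). At resolution 2 they were 0.890 (cDC-like), 0.704 (Trem2/Spp1 cluster) and 0.122 (monocyte-like) in micrometastasis. With cells called one by one they were 0.737 and 0.716 (cDC-like), 1.05, 0.845 and 0.765 (B-like), 0.546 (Kupffer-like, macrometastasis) and 0.173 and 0.603 (monocyte-like). Less the mature neutrophil-like level, monocyte-like cells of micrometastasis had 0.108.

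Alternatives chosen after seeing the data were single clusters, shares of clusters and T-like cells with fewer than 2 UMIs of the B markers. Cluster 5 gave 0.218 and 0.505 for monocyte-like cells, cluster 11 gave 0.360 in micrometastasis, and cluster 1 gave 0.835, 0.874 and 0.844 for B-like cells. With cluster shares of Ctrl held fixed the whole-library ratios were 0.743 in adjacent tissue and 0.797 in macrometastasis. The cause of these moves was not tested. Without thinning, the share of cells with a class II UMI in micrometastasis was 91.5% in Ctrl and 80.7% in Tim3-KD for the Trem2/Spp1 cluster, 50.8% and 14.2% for monocyte-like cells, 24.9% and 17.3% for T-like cells and 23.9% and 8.93% for mature neutrophil-like cells.

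Not run were the subtraction of the neutrophil level in adjacent tissue, where Tim3-KD held 19 such cells, calling the Trem2/Spp1 cluster cell by cell, which has too few markers, and resolution 2 for that cluster in macrometastasis, where too few of its cells remained.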
